A study of Mus musculus with 18 samples.

Results

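The 35 genes described here encode the surface receptors, granule proteins, enzymes and signalling proteins of platelets and of megakaryocytes, the large polyploid cells that shed platelets. They were taken by symbol from a written list of such genes, chosen with earlier results of these data known. All 35 were found among the 19320 genes of the deposited table. By role they comprised 10 adhesion and surface receptors, 8 granule and secreted proteins, 6 receptors for soluble agonists, 3 eicosanoid enzymes, 6 signalling and cytoskeletal proteins, and a pair made of the serotonin transporter and a transcription factor.

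Gene expression was measured by poly(A) RNA sequencing in spleens of male ICR mice aged 10 weeks, an outbred stock, with 3 libraries for each of 6 groups. Con was the control, on a regular diet and saline, the A10 group was dosed with AOS (alginate oligosaccharide, a chain of few sugars cut from seaweed alginate) at 10 mg/kg, and the STZ group was injected once with streptozotocin, a toxin taken up by pancreatic β cells that leaves the animals short of insulin. The STZ-A10 group had both. The transplant groups had the same STZ injection followed by daily fecal microbiota transplantation (FMT) by mouth. The material was small intestinal content pooled over donors dosed with AOS at 10 mg/kg (A10-FMT) or with water (Con-FMT). How AOS was dosed in the A10 and STZ-A10 groups, and whether any group had a sham inoculation, is not given in the sources used here. The labels do not say that the 3 libraries of a group came from separate animals, so the p-values measure only the spread between these libraries, which may be technical.

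Platelets are made by megakaryocytes in the bone marrow and, in rodents, also in the red pulp of the spleen, and the spleen holds a store of circulating platelets. Platelets have no nucleus and carry the messenger RNA that the megakaryocyte gave them, so bulk spleen RNA mixes both sources. At a wound the glycoprotein Ib-IX-V complex catches von Willebrand factor, collagen and thrombin receptors activate the cell, integrin αIIbβ3 binds fibrinogen, and the granules release chemokines, clotting factors and serotonin. Several of the genes are not confined to the lineage: Vwf, Selp and Mmrn1 are also transcribed in endothelium, F13a1 in monocytes and macrophages, Myl9 in smooth muscle, Fermt3 and Rasgrp2 in other leukocytes, and Gfi1b in erythroid precursors.

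The promoters of these genes are known for paired binding sites of GATA1 and of ETS factors such as FLI1. RefSeq promoters (build GRCm38.p6) were found for 31 of the 35 genes. Itgb3, Rgs18, Thbs1 and Vwf were not matched. The 250 bases before each start were searched on both strands for the GATA letters, AGATAA with T also allowed in its first place and G in its last, and for the ETS letters, AGGAAG with C also allowed in its first place. Matches of the 2 kinds do not overlap in the stretches printed. Of the 31 promoters, 10 (32.3%) held GATA letters and 16 (51.6%) held ETS letters, against 17.8% and 46.6% of the 10131 promoters of tested genes. Both kinds stood together in 4 of 31 (12.9%), against 7.97% of all. The stretches below are those of the 4 genes of the glycoprotein Ib-IX-V complex, of Itga2b, which encodes integrin αIIb, and of Gfi1b, whose levels followed another course. They lie at chr11:70638872-70639121 on the plus strand, chr16:18622404-18622653 on the minus strand, chr16:30310782-30311031 on the minus strand, chr6:87777820-87778069 on the plus strand, chr11:102469884-102470133 on the minus strand and chr2:28621983-28622232 on the minus strand. They read 5′ to 3′ on the strand of the gene, and capitals mark the GATA and ETS letters on either strand.
Gp1ba: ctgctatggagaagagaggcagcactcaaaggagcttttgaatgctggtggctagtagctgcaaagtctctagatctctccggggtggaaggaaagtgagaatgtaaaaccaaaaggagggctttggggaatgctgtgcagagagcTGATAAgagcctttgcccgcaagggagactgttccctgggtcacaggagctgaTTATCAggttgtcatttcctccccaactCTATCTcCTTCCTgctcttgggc
Gp1bb: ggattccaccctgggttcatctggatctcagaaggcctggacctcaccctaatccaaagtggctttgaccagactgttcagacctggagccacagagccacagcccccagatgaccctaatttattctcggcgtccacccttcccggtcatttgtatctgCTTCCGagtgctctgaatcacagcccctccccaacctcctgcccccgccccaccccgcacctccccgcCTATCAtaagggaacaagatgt
Gp5: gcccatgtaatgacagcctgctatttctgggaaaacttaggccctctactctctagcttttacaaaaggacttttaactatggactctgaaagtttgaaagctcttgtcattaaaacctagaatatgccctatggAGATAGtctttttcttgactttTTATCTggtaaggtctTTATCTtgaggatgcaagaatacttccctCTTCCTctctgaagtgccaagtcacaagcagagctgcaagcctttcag
Gp9: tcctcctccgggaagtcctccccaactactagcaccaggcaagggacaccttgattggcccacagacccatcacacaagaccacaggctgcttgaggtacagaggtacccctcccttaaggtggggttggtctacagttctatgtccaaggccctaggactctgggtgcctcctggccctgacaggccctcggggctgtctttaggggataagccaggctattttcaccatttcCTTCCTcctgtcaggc
Itga2b: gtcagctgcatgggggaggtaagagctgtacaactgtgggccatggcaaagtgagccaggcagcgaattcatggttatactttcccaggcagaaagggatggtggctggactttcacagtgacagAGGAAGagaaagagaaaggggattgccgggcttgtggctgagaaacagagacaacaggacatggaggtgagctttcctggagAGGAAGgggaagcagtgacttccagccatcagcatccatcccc
Gfi1b: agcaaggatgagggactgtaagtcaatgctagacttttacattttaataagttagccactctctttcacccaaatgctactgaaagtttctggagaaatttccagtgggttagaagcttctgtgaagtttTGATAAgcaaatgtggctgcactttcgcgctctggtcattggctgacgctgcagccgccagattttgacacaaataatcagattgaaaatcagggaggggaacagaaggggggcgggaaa

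Gp1ba and Gp5 each held 3 GATA matches and 1 ETS match, and Gp1bb held 1 of each. Gp9 held 1 ETS match, Itga2b held 2 ETS matches, and neither held GATA letters in this stretch. The starts are those of RefSeq. By the GENCODE annotation Itga2b begins at position 102470122 on the minus strand, so most of its stretch lies within the gene. The bases before that GENCODE start were not searched. The stretch of Gfi1b held 1 GATA match and no ETS letters. These matches describe the letters only.

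The table gives RPKM, the reads of a gene divided by its length and by the mapped reads of the library, so levels can be compared between genes. Judged roughly from the smallest steps between low values, an RPKM of 1 stood for about 12.2 to 14.2 reads per kilobase. By this estimate the total depth of the libraries was similar. The globin genes within it were uneven, with sums from 72496 RPKM in STZ replicate 1 to 377632.5 RPKM in A10-FMT replicate 3. All 35 genes passed the filter of an RPKM of at least 1 in at least 3 libraries, as did 12905 genes in all, and 34 of the 35 reached 1 RPKM in every library. The exception was Trpc6, at 0.91 RPKM in STZ replicate 2, and its lowest level rested on about 38 reads, for a counting error of 16.3%. Genes of spleen cell types were present in every library, with B cell genes summing to 576 to 2707 RPKM and red pulp macrophage genes to 667 to 1493. Genes of pancreas and liver, neighbouring organs, were also present, at 23.3 to 15835 and 2.09 to 399 RPKM. A10-FMT replicate 3 stood apart from the other libraries, with the highest erythroid sum (6290 RPKM) and the lowest B cell and T cell sums (576 and 69.1 RPKM). Con replicate 1 stood apart by its neutrophil sum, described with the results it moves with.

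Levels among the genes spanned a wide range. The 2 platelet chemokines had the highest means over the 18 libraries, 312 RPKM for Pf4 and 294 RPKM for Ppbp, and Trpc6 had the lowest, 2.40 RPKM. Summed over the 35 genes, expression ran from 668 RPKM in STZ replicate 2 to 3258 RPKM in Con replicate 1. Con replicate 1 was the highest of all 18 libraries for 32 of the 35 genes and the highest Con library for 35 of 35. At the other end, STZ replicate 2 was the lowest of the 18 for 18 genes and STZ replicate 1 for 9. STZ replicate 3 was the highest STZ library for 31 of 35, and none of the 35 had its lowest value there.

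**Figure D1:**
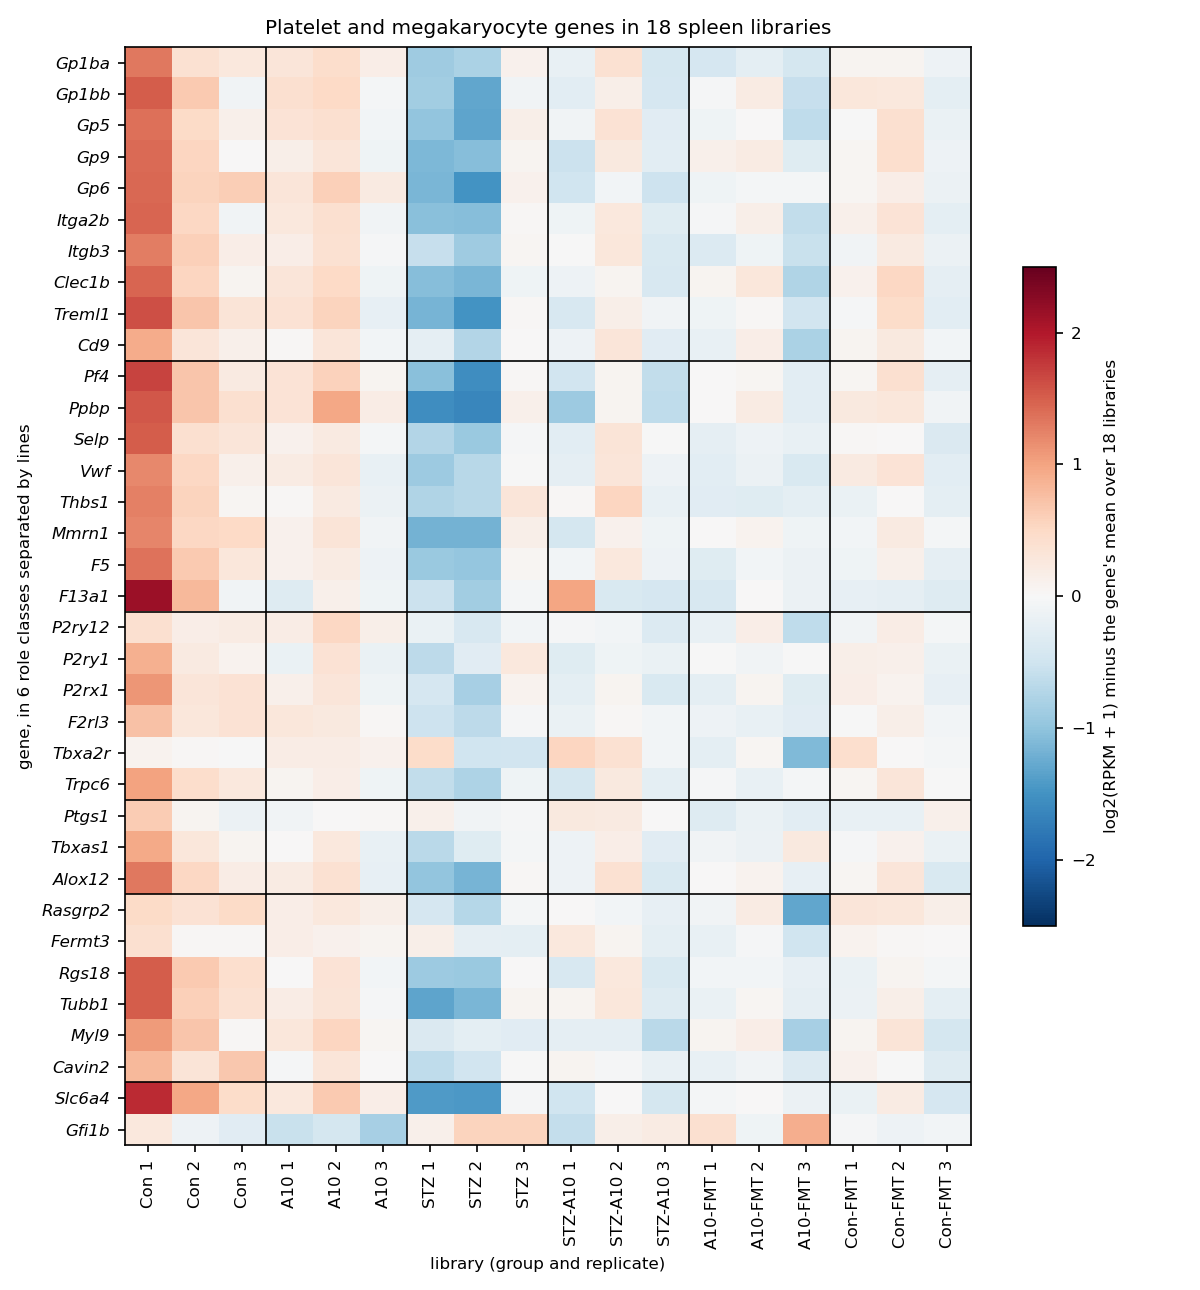
Each cell is the log2(RPKM + 1) of a gene (row) in a library (column) minus that gene's mean over the 18 libraries, with red above and blue below the mean, and black lines separating the role classes and the groups. The column of Con replicate 1 is the reddest, the columns of STZ replicates 1 and 2 are the bluest, and the row of Gfi1b runs another way from most rows.

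STZ against Con asks how these transcripts differed after the STZ injection, without further treatment. Direct effects of the toxin and those of the diabetes it causes cannot be told apart here. In this comparison 5 of the 35 genes passed an adjusted p of 0.05 by limma, all 5 lower in STZ: Slc6a4, Gp6, Rgs18, Cavin2 and F2rl3. Of all 12905 genes tested, 21 passed (0.163%). At an unadjusted p under 0.05, 31 of the 35 were lower in STZ and 0 were higher, against 6.44% of all genes lower. In 24 of the 35, every STZ library was below every Con library, against 7.07% of all genes. The median log2 fold change of the 35 genes was -1.18, against -0.01 over all genes tested. The lower platelet list in STZ was known when the genes were chosen. These counts and calls therefore describe it and give no independent support. Taken over whole spleens, these values cannot tell fewer megakaryocytes or platelets apart from less RNA per cell.

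The 5 calls depended on the processing and on single libraries. None of the 35 passed after median centring, with globin genes left out of the scaling, with no filter on low values, when only the STZ and Con libraries were fitted, or with the replicate number as a block. In these 5 settings 0% to 0.062% of all genes passed. There 30 to 32 of the 35 were lower at an unadjusted p under 0.05, against 5.18% to 9.39% of all genes. Quantile normalization left 2 calls, against 0.24% of all genes. Without Con replicate 1, 3 of the 35 passed, against 0.891% of all genes. None passed without Con replicate 2, STZ replicate 1 or STZ replicate 2, where 0.00775%, 0.031% and 0.00775% of all genes passed. Without Con replicate 3, 21 passed, and 24 without STZ replicate 3, where 0.976% and 1.26% of all genes passed. The median log2 fold change was -0.86 without Con replicate 1 and -1.50 without STZ replicate 3, and 28 and 31 genes were lower at an unadjusted p under 0.05, against 7.58% and 6.34% of all genes. With Con replicate 1 and STZ replicate 3 both left out, a setting chosen after seeing the data, 24 genes passed, against 1.88% of all genes. Slc6a4, Cavin2 and F2rl3 were the 3 that passed without Con replicate 1.

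The serotonin transporter Slc6a4 (chr11:76998603-77032340, plus strand), which loads platelets with serotonin from plasma, had the widest range of the 35 genes, 13.4-fold between its lowest and highest library. It stood at 33.2, 17.4 and 11.9 RPKM in the Con libraries and at 2.52, 2.48 and 8.18 in the STZ libraries. In the remaining groups it was at 10.3, 13.7 and 9.53 in A10, 5.66, 8.50 and 5.89 in STZ-A10, 8.04, 8.40 and 7.49 in A10-FMT and 7.39, 9.88 and 6.05 in Con-FMT. The 3 Con libraries lay above every STZ library, though STZ replicate 3 lay closer to Con replicate 3 than to the other STZ libraries. The log2 fold change, on the log2(RPKM + 1) scale used throughout, was -2.06 ± 0.36 (SE, adjusted p = 0.0405, limma).

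Gfi1b, a transcriptional repressor that erythroid and megakaryocytic precursors need, was the only 1 of the 35 genes with a higher mean in STZ than in Con. It stood at 47.96, 36.7 and 32.5 RPKM in the Con libraries and at 43.9, 59.01 and 59.6 in the STZ libraries. Values of 26.7, 29.2 and 22.2 in A10, 26.2, 44.3 and 46.3 in STZ-A10, 53.04, 36.8 and 75.6 in A10-FMT and 39.2, 36.7 and 38.2 in Con-FMT were found in the other groups. The STZ and Con libraries overlapped, since STZ replicate 1 lay below Con replicate 1, and the difference of 0.47 ± 0.24 did not pass (adjusted p = 0.53). Its levels moved with the erythroid list of 15 genes and with a list of 14 megakaryocyte regulators. Pearson's r over the 18 libraries was 0.830 and 0.927 with the log2 sums of these lists. The 3 libraries with the most Gfi1b, A10-FMT replicate 3, STZ replicate 3 and STZ replicate 2, had erythroid sums of 6290, 3778 and 3540 RPKM, and the library with the least, A10 replicate 3, had 1388 RPKM. STZ replicate 1 broke this order, with 43.9 RPKM of Gfi1b beside an erythroid sum of 1191 RPKM. Whether erythroid cells gave the Gfi1b signal was not tested.

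**Figure D2:**
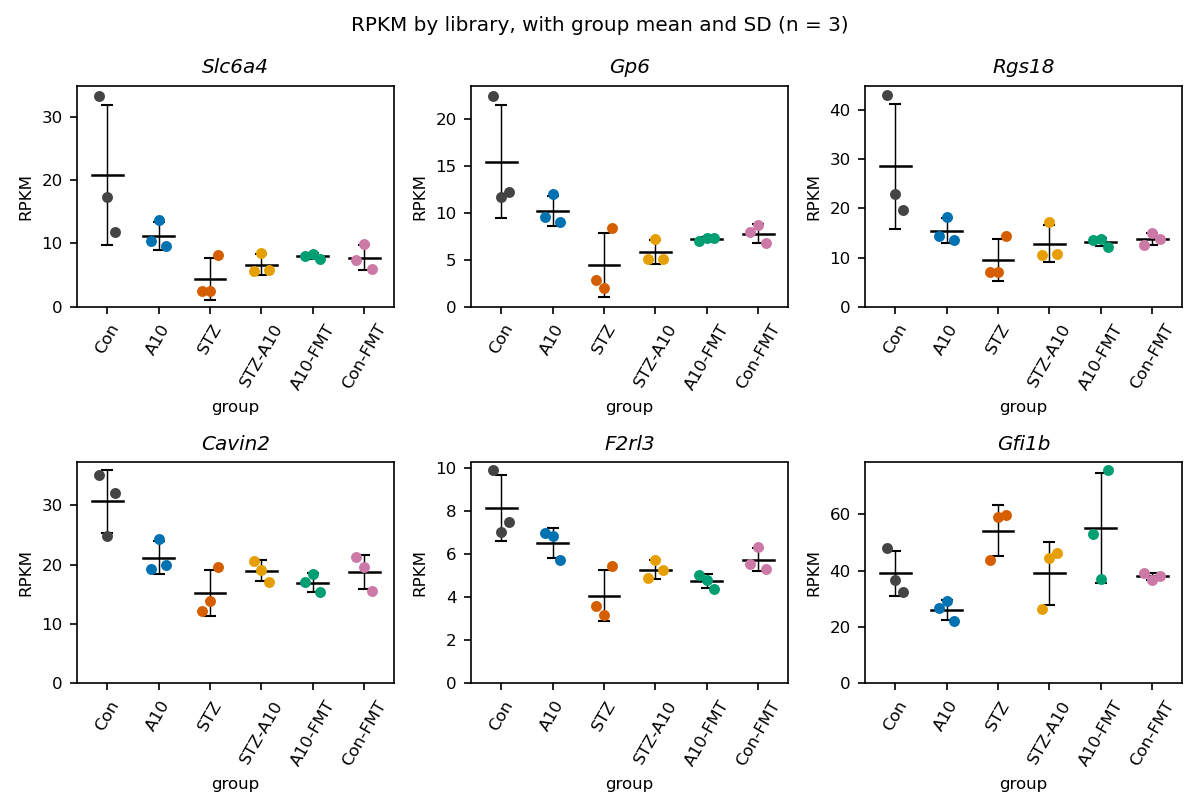
Points are the RPKM of single libraries in the 6 groups, in replicate order from left to right, with the group mean as a horizontal line and its SD as the error bar (n = 3), for the 5 genes called in STZ against Con and for Gfi1b. In each of the 5 called genes the highest point is Con replicate 1 and the third STZ point lies above the other STZ points, while Gfi1b peaks at 75.6 RPKM in A10-FMT replicate 3.

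Among the 10 adhesion and surface receptors, all 10 were lower in STZ with an unadjusted p under 0.05, with a median log2 fold change of -1.37. Gp6, the collagen receptor glycoprotein VI, was the only one past the adjusted threshold. Its gene lies at chr7:4363965-4397744, minus strand. It stood at 22.5, 11.8 and 12.2 RPKM in the Con libraries and at 2.89, 2.07 and 8.37 in the STZ libraries. It was at 9.60, 12.1 and 9.06 in A10, 5.09, 7.29 and 5.07 in STZ-A10, 7.03, 7.35 and 7.35 in A10-FMT and 7.95, 8.73 and 6.80 in Con-FMT. STZ replicates 1 and 2 were the lowest of the 18 libraries, and the STZ and Con libraries did not overlap. The log2 fold change was -1.72 ± 0.32 (adjusted p = 0.0449).

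The receptor for von Willebrand factor is built from Gp1ba, which carries the binding site, Gp1bb, Gp9 and Gp5. Gp9 stood at 117, 62.8 and 43.00 RPKM in the Con libraries and at 19.2, 20.00 and 44.9 in the STZ libraries. In the rest it was at 47.7, 53.1 and 39.6 in A10, 29.4, 50.8 and 35.4 in STZ-A10, 47.2, 49.6 and 34.7 in A10-FMT and 44.5, 57.4 and 38.9 in Con-FMT. STZ replicate 3 lay above Con replicate 3, so the groups overlapped, and the log2 fold change was -1.36 ± 0.34 (adjusted p = 0.0914). The other 3 subunits showed like differences. Gp1ba had mean levels of 14.1 ± 6.53 RPKM in Con and 5.63 ± 2.73 in STZ (SD, n = 3), with 10.2 ± 1.07 in A10, 7.77 ± 2.67 in STZ-A10, 6.02 ± 0.512 in A10-FMT and 8.04 ± 0.70 in Con-FMT, and a log2 fold change of -1.18 ± 0.28. For Gp1bb the means were 33.8 ± 19.01 RPKM in Con and 11.3 ± 5.39 in STZ, with 23.01 ± 4.57 in A10, 16.4 ± 3.58 in STZ-A10, 17.1 ± 4.76 in A10-FMT and 20.1 ± 4.14 in Con-FMT, and the log2 fold change was -1.44 ± 0.36. For Gp5 they were 21.9 ± 10.7 RPKM in Con and 8.07 ± 5.15 in STZ, with 14.97 ± 2.64 in A10, 12.7 ± 3.26 in STZ-A10, 10.7 ± 2.60 in A10-FMT and 13.4 ± 3.06 in Con-FMT, and the log2 fold change was -1.38 ± 0.35. None of the 4 passed the adjusted threshold (adjusted p = 0.0821 for Gp1ba, 0.0889 for Gp1bb and 0.0961 for Gp5), and the Con and STZ libraries of Gp1bb and Gp5 overlapped. Across the 18 libraries the level of Gp9 over that of Gp1bb ran from 1.94 to 2.89, a range of 1.49-fold. Gp1ba over Gp1bb ran from 0.309 to 0.606 (1.96-fold), Gp1ba over Gp9 from 0.122 to 0.236 (1.93-fold) and Gp5 over Gp9 from 0.222 to 0.396 (1.79-fold). The single genes varied 5.54-fold (Gp1ba) to 7.85-fold (Gp1bb).

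The fibrinogen receptor is the pair of Itga2b (integrin αIIb) and Itgb3 (integrin β3). Itga2b averaged 47.6 ± 26.7 RPKM in Con and 17.9 ± 8.84 in STZ, with 31.9 ± 5.69 in A10, 26.97 ± 5.81 in STZ-A10, 25.03 ± 6.66 in A10-FMT and 29.5 ± 6.09 in Con-FMT. Its log2 fold change was -1.32 ± 0.36 (adjusted p = 0.116), with overlapping libraries. Itgb3 averaged 42.3 ± 17.3 RPKM in Con and 18.3 ± 6.58 in STZ, with 28.1 ± 4.12 in A10, 24.5 ± 5.83 in STZ-A10, 19.6 ± 3.21 in A10-FMT and 24.9 ± 3.84 in Con-FMT, and its libraries did not overlap (log2 fold change -1.14 ± 0.27, adjusted p = 0.0779). The level of Itga2b over that of Itgb3 stayed between 0.785 and 1.38 in the 18 libraries.

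The tetraspanin Cd9, which B cells and other cells also carry, was the most abundant of the surface genes. Cd9 stood at 139.9, 89.6 and 79.03 RPKM in the Con libraries and at 61.8, 43.5 and 73.3 in the STZ libraries. It was at 74.2, 89.8 and 69.5 in A10, 66.9, 89.5 and 59.3 in STZ-A10, 64.04, 81.3 and 41.9 in A10-FMT and 76.03, 86.4 and 69.8 in Con-FMT. The libraries of Con and STZ did not overlap, and the difference was smaller than for the other receptors (-0.77 ± 0.26, adjusted p = 0.218). Clec1b, the podoplanin receptor CLEC-2, averaged 34.8 ± 18.2 RPKM in Con and 11.6 ± 5.51 in STZ, with 23.2 ± 4.95 in A10, 17.5 ± 3.04 in STZ-A10, 18.4 ± 6.50 in A10-FMT and 21.9 ± 5.84 in Con-FMT (-1.47 ± 0.36, adjusted p = 0.0834). Treml1, a granule membrane protein that reaches the surface on activation, averaged 33.1 ± 16.6 RPKM in Con and 9.50 ± 6.29 in STZ, with 19.8 ± 5.28 in A10, 15.1 ± 2.99 in STZ-A10, 14.4 ± 2.64 in A10-FMT and 17.4 ± 4.93 in Con-FMT (-1.75 ± 0.37, adjusted p = 0.0635). In both of these genes every STZ library was below every Con library.

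All 8 granule and secreted proteins were lower in STZ with an unadjusted p under 0.05, with a median log2 fold change of -1.41, and 0 of the 8 passed the adjusted threshold. Pf4 (platelet factor 4) and Ppbp (pro-platelet basic protein) are chemokines stored in alpha granules, and their genes are neighbours at chr5:90772435-90773383, plus strand and chr5:90768518-90770063, plus strand. Pf4 stood at 897, 451 and 325 RPKM in the Con libraries and at 134, 94.1 and 286 in the STZ libraries. It was at 353, 415 and 292 in A10, 200.2, 292 and 180.4 in STZ-A10, 281, 289.7 and 231 in A10-FMT and 286, 368 and 237 in Con-FMT. Ppbp stood at 754, 416 and 341 RPKM in the Con libraries and at 86.8, 82.6 and 281 in the STZ libraries. It was at 327, 506 and 293 in A10, 137, 271 and 165 in STZ-A10, 258, 298 and 214 in A10-FMT and 304, 312 and 241 in Con-FMT. In both genes the STZ libraries lay below every Con library, STZ replicates 1 and 2 lay below all other libraries, and Pf4 differed 9.54-fold between Con replicate 1 and STZ replicate 2. The log2 fold changes were -1.72 ± 0.37 for Pf4 (adjusted p = 0.0653) and -1.90 ± 0.41 for Ppbp (adjusted p = 0.0642). The ratio of Pf4 to Ppbp stayed between 0.821 in A10 replicate 2 and 1.54 in STZ replicate 1.

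P-selectin (Selp), which tethers leukocytes to activated platelets, averaged 6.29 ± 3.66 RPKM in Con and 1.84 ± 0.981 in STZ, with 3.33 ± 0.407 in A10, 3.17 ± 0.869 in STZ-A10, 2.60 ± 0.126 in A10-FMT and 2.79 ± 0.561 in Con-FMT (-1.30 ± 0.28, adjusted p = 0.0642). Von Willebrand factor (Vwf) averaged 12.6 ± 5.23 RPKM in Con and 5.07 ± 2.08 in STZ, with 8.24 ± 1.56 in A10, 7.52 ± 1.70 in STZ-A10, 6.08 ± 0.57 in A10-FMT and 8.29 ± 1.97 in Con-FMT (-1.15 ± 0.27, adjusted p = 0.0779). Both are also endothelial. The list of 14 endothelial genes summed to 134 to 214 RPKM in Con and 167 to 208 RPKM in STZ. Its libraries overlapped and those of Selp and Vwf did not, but the part of endothelium in their differences was not tested. Multimerin 1 (Mmrn1), a carrier of factor V, averaged 10.9 ± 3.64 RPKM in Con and 3.58 ± 2.68 in STZ, with 6.55 ± 1.11 in A10, 5.31 ± 1.17 in STZ-A10, 5.92 ± 0.448 in A10-FMT and 6.08 ± 0.83 in Con-FMT (-1.49 ± 0.29, adjusted p = 0.0539). Coagulation factor V (F5) averaged 11.1 ± 4.68 RPKM in Con and 3.71 ± 2.03 in STZ, with 6.15 ± 0.812 in A10, 6.0 ± 1.07 in STZ-A10, 5.05 ± 0.485 in A10-FMT and 5.55 ± 0.842 in Con-FMT (-1.38 ± 0.26, adjusted p = 0.0529). In Mmrn1 and F5 the Con and STZ libraries did not overlap, and each missed the adjusted threshold.

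Thrombospondin 1 (Thbs1), an adhesive granule protein, averaged 33.5 ± 14.8 RPKM in Con and 16.2 ± 7.64 in STZ, with 20.8 ± 2.90 in A10, 22.6 ± 6.33 in STZ-A10, 16.4 ± 0.265 in A10-FMT and 18.3 ± 1.68 in Con-FMT (-1.01 ± 0.29, adjusted p = 0.14). Its libraries overlapped, since STZ replicate 3 had 25.0 RPKM and Con replicate 3 had 20.8. The A subunit of factor XIII (F13a1), which cross-links fibrin, averaged 14.3 ± 11.6 RPKM in Con and 3.72 ± 1.37 in STZ, with 5.03 ± 0.927 in A10, 6.49 ± 4.52 in STZ-A10, 4.71 ± 0.832 in A10-FMT and 4.40 ± 0.225 in Con-FMT (-1.45 ± 0.44, adjusted p = 0.166). Its Con libraries lay far apart, at 27.4, 10.3 and 5.08 RPKM, and STZ-A10 replicate 1 reached 11.7 RPKM beside 3.93 and 3.82 in the other STZ-A10 libraries.

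Of the 6 agonist receptors, 5 were lower in STZ with an unadjusted p under 0.05 and the median log2 fold change was -0.74. F2rl3 encodes protease-activated receptor 4, the thrombin receptor of mouse platelets, and lies at chr8:72761880-72763874, plus strand. It stood at 9.90, 7.04 and 7.51 RPKM in the Con libraries and at 3.60, 3.19 and 5.43 in the STZ libraries. It was at 7.0, 6.85 and 5.73 in A10, 4.87, 5.72 and 5.25 in STZ-A10, 5.04, 4.82 and 4.39 in A10-FMT and 5.54, 6.34 and 5.32 in Con-FMT. The 3 Con libraries lay above the 3 STZ libraries, and F2rl3 passed the adjusted threshold with a smaller change than most of the 35 genes but a small spread (-0.86 ± 0.15, adjusted p = 0.0405). P2rx1, the ATP-gated channel of platelets, stood at 22.3, 12.3 and 12.9 RPKM in the Con libraries and at 7.13, 5.13 and 10.4 in the STZ libraries. It was at 10.9, 12.4 and 9.10 in A10, 8.13, 10.4 and 7.32 in STZ-A10, 8.19, 10.4 and 7.73 in A10-FMT and 11.2, 10.6 and 8.35 in Con-FMT. Its STZ libraries lay below every Con library (-0.97 ± 0.24, adjusted p = 0.0834).

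Platelets sense ADP through a pair of receptors. P2ry12, the target of clopidogrel, averaged 9.11 ± 0.893 RPKM in Con and 6.29 ± 0.832 in STZ, with 9.28 ± 1.57 in A10, 6.66 ± 0.888 in STZ-A10, 6.40 ± 2.01 in A10-FMT and 7.54 ± 0.895 in Con-FMT (-0.48 ± 0.18, adjusted p = 0.289), and was the only gene of the 35 with its highest library in A10. P2ry1 averaged 5.99 ± 2.16 RPKM in Con and 3.57 ± 1.45 in STZ, with 4.26 ± 1.16 in A10, 3.51 ± 0.303 in STZ-A10, 4.03 ± 0.14 in A10-FMT and 4.33 ± 0.613 in Con-FMT (-0.62 ± 0.22, adjusted p = 0.274). The calcium-permeable channel Trpc6 averaged 4.0 ± 1.39 RPKM in Con and 1.37 ± 0.609 in STZ, with 2.38 ± 0.337 in A10, 2.03 ± 0.77 in STZ-A10, 2.08 ± 0.181 in A10-FMT and 2.56 ± 0.42 in Con-FMT (-1.07 ± 0.21, adjusted p = 0.0563), and its Con and STZ libraries did not overlap.

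The thromboxane receptor Tbxa2r, which T cells and vessel walls also carry, was the highest of the agonist receptors on average and followed another course. Tbxa2r stood at 10.97, 10.6 and 10.2 RPKM in the Con libraries and at 14.6, 7.0 and 7.08 in the STZ libraries. It was at 11.8, 11.8 and 11.2 in A10, 15.3, 13.8 and 9.74 in STZ-A10, 8.58, 10.7 and 4.27 in A10-FMT and 14.2, 10.4 and 9.93 in Con-FMT. STZ replicate 1 lay above every Con library while the other STZ libraries lay below them, and the difference did not pass (-0.20 ± 0.28, adjusted p = 0.867). Its lowest value fell in A10-FMT replicate 3, the library with the lowest B cell and T cell sums.

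The eicosanoid enzymes make thromboxane and 12-hydroxy fatty acids from arachidonic acid. Alox12, platelet 12-lipoxygenase, stood at 88.01, 50.4 and 39.6 RPKM in the Con libraries and at 17.00, 15.03 and 35.3 in the STZ libraries. It was at 40.4, 45.5 and 29.9 in A10, 31.5, 45.4 and 26.4 in STZ-A10, 35.1, 36.9 and 29.8 in A10-FMT and 35.9, 42.8 and 26.3 in Con-FMT. The STZ libraries lay below every Con library, and the log2 fold change was -1.38 ± 0.32 (adjusted p = 0.0755). Ptgs1, cyclooxygenase 1, the target of aspirin, stood at 22.4, 14.7 and 12.5 RPKM in the Con libraries and at 15.4, 13.1 and 13.8 in the STZ libraries. It was at 13.1, 14.2 and 14.3 in A10, 16.9, 16.6 and 14.1 in STZ-A10, 11.1, 12.4 and 11.5 in A10-FMT and 12.3, 12.2 and 15.4 in Con-FMT. Apart from Con replicate 1, its libraries lay between 11.1 and 16.9 RPKM, the groups overlapped, and the log2 fold change of -0.18 ± 0.16 (adjusted p = 0.778) turned to 0.051 without Con replicate 1. Tbxas1, thromboxane synthase, averaged 14.4 ± 5.08 RPKM in Con and 7.77 ± 1.84 in STZ, with 10.3 ± 1.83 in A10, 9.47 ± 1.65 in STZ-A10, 10.1 ± 1.71 in A10-FMT and 9.80 ± 1.04 in Con-FMT. Its Con and STZ libraries did not overlap (-0.78 ± 0.21, adjusted p = 0.119). The level of Ptgs1 over that of Alox12 averaged 0.287 in Con and 0.724 in STZ, and ran from 0.254 to 0.907 over the 18 libraries.

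Of the 6 signalling and cytoskeletal genes, 5 were lower in STZ with an unadjusted p under 0.05, the median log2 fold change was -0.94, and 2 passed the adjusted threshold. Cavin2, a coat protein of caveolae that is abundant in platelets, lies at chr1:51289126-51302960, plus strand. It stood at 35.1, 24.8 and 32.02 RPKM in the Con libraries and at 12.2, 13.8 and 19.6 in the STZ libraries. It was at 19.3, 24.4 and 19.9 in A10, 20.6, 19.1 and 17.1 in STZ-A10, 17.1, 18.5 and 15.3 in A10-FMT and 21.2, 19.6 and 15.6 in Con-FMT. The 3 Con libraries were the highest 3 of the 18, and the log2 fold change was -0.98 ± 0.17 (adjusted p = 0.0405). Rgs18, a brake on G protein signalling in megakaryocytes, lies at chr1:144752683-144775435, minus strand. It stood at 43.00, 23.02 and 19.6 RPKM in the Con libraries and at 7.12, 7.09 and 14.5 in the STZ libraries. It was at 14.5, 18.4 and 13.6 in A10, 10.6, 17.3 and 10.7 in STZ-A10, 13.6, 13.7 and 12.2 in A10-FMT and 12.6, 15.1 and 13.8 in Con-FMT. Here too the 3 Con libraries were the highest 3 of the 18, as they also were for Mmrn1, F5, F2rl3, Rasgrp2 and Tubb1, and the adjusted p lay just under the threshold (-1.47 ± 0.28, adjusted p = 0.0496).

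Fermt3, kindlin 3, which activates integrins in all blood cells, stood at 125, 96.5 and 95.98 RPKM in the Con libraries and at 104, 80.00 and 79.2 in the STZ libraries. It was at 106, 101 and 98.3 in A10, 113, 98.8 and 79.4 in STZ-A10, 82.96, 92.7 and 66.6 in A10-FMT and 99.6, 95.96 and 94.6 in Con-FMT. It varied 1.88-fold over the 18 libraries, the smallest range of the 35 genes, and its groups overlapped (-0.27 ± 0.15, adjusted p = 0.58). The regulatory myosin light chain Myl9 stood at 179.8, 139 and 86.7 RPKM in the Con libraries and at 66.3, 71.6 and 69.9 in the STZ libraries. It was at 104, 124 and 88.4 in A10, 72.9, 72.5 and 53.1 in STZ-A10, 89.00, 96.3 and 47.3 in A10-FMT and 90.00, 107 and 62.8 in Con-FMT. The STZ libraries lay close together and below every Con library (-0.89 ± 0.28, adjusted p = 0.184). The smooth muscle list summed to 180 to 233 RPKM in Con and 146 to 263 RPKM in STZ, and its part in the Myl9 difference was not tested. Rasgrp2, which activates the small GTPase Rap1, averaged 89.2 ± 4.22 RPKM in Con and 50.4 ± 11.7 in STZ, with 75.3 ± 3.40 in A10, 61.6 ± 4.63 in STZ-A10, 54.5 ± 25.5 in A10-FMT and 77.97 ± 4.51 in Con-FMT. Its Con and STZ libraries did not overlap (-0.84 ± 0.27, adjusted p = 0.191). Tubb1, the β-tubulin of the platelet marginal band, averaged 52.6 ± 24.1 RPKM in Con and 17.02 ± 10.2 in STZ, with 30.7 ± 3.90 in A10, 27.9 ± 5.93 in STZ-A10, 25.4 ± 2.69 in A10-FMT and 25.9 ± 3.80 in Con-FMT, and its adjusted p was 0.0539 (-1.62 ± 0.32).

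**Figure D3:**
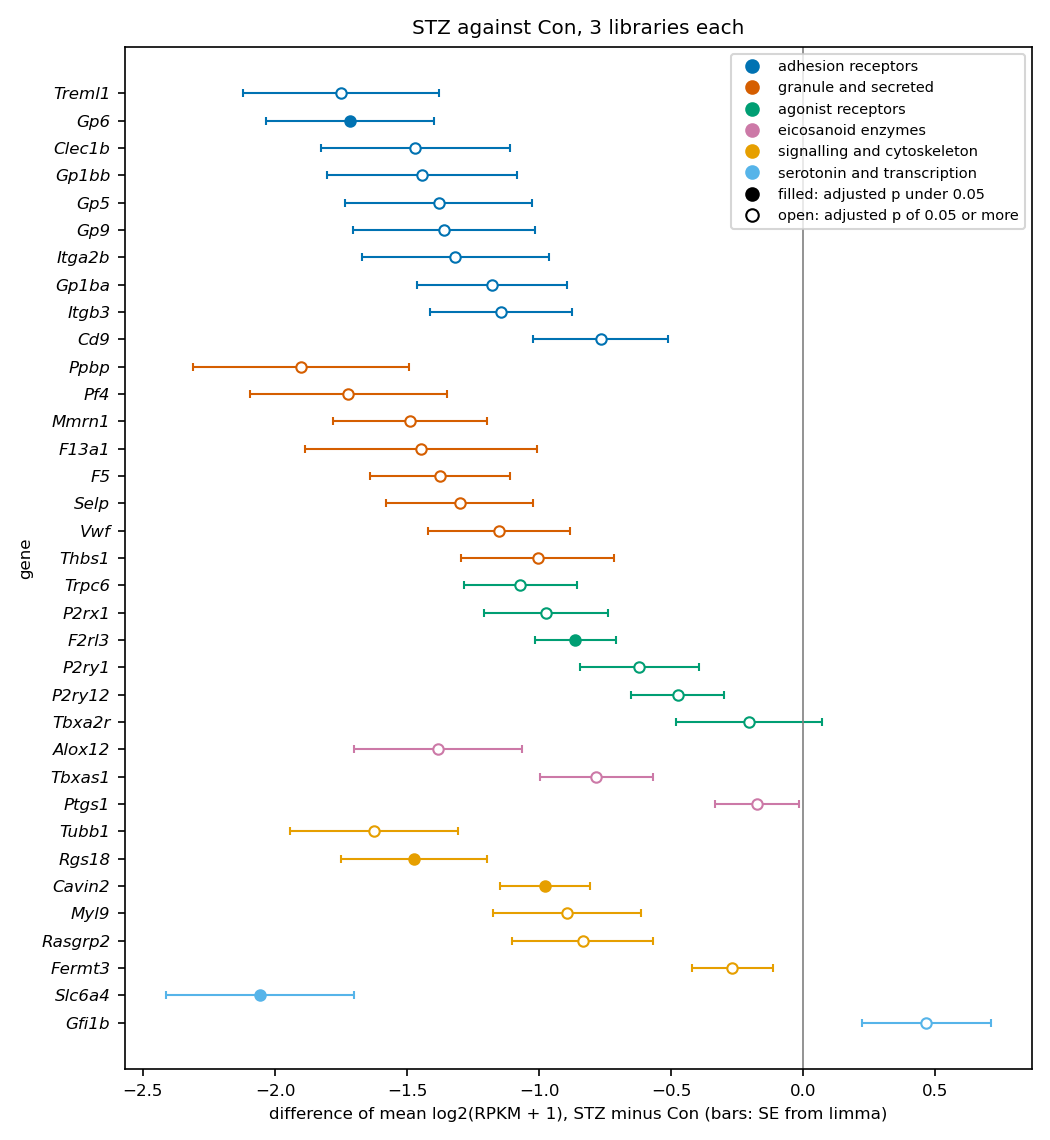
Each point is the log2(RPKM + 1) difference of STZ minus Con for a gene, with its SE from limma as the bar, coloured by role class and filled where the adjusted p was under 0.05. All genes but Gfi1b lie left of 0, the 5 filled points are Gp6, F2rl3, Rgs18, Cavin2 and Slc6a4, and Tbxa2r, Ptgs1 and Fermt3 lie nearest to 0.

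Other cell types also differed between these libraries, and their part in the result was not tested. The neutrophil list of 14 genes summed to 16314, 4455 and 845 RPKM in Con replicates 1 to 3, to 461 to 1840 RPKM in STZ and to 493 to 1726 RPKM in the other groups. Of its 14 genes, 13 were lower in STZ with an unadjusted p under 0.05 with a median log2 fold change of -2.08, and none had groups that did not overlap. The liver list of 14 genes summed to 21.2 to 295 RPKM in Con and 2.09 to 4.62 RPKM in STZ, with 14 of 14 lower at an unadjusted p under 0.05 (median -2.29). The exocrine pancreas list of 11 genes overlapped, at 23.3 to 1444 RPKM in Con and 901 to 3880 in STZ, with 10 of 11 above 0 (median 2.98) and 3 higher at an unadjusted p under 0.05. The monocyte list of 9 genes summed to 1441 to 1915 RPKM in Con and 957 to 1244 in STZ, with 2 lower and 2 higher at an unadjusted p under 0.05 (median -0.25). The mast cell and basophil list summed to 11.1 to 22.5 RPKM in Con and 3.47 to 9.76 in STZ. The red pulp macrophage list was higher, at 716 to 930 RPKM in Con and 1015 to 1117 in STZ, and the erythroid list overlapped, at 2130 to 3445 and 1191 to 3778 RPKM. Con replicate 1, with the highest level of 32 of the 35 genes, also had the highest neutrophil sum, and the values without it are given above.

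**Figure D4:**
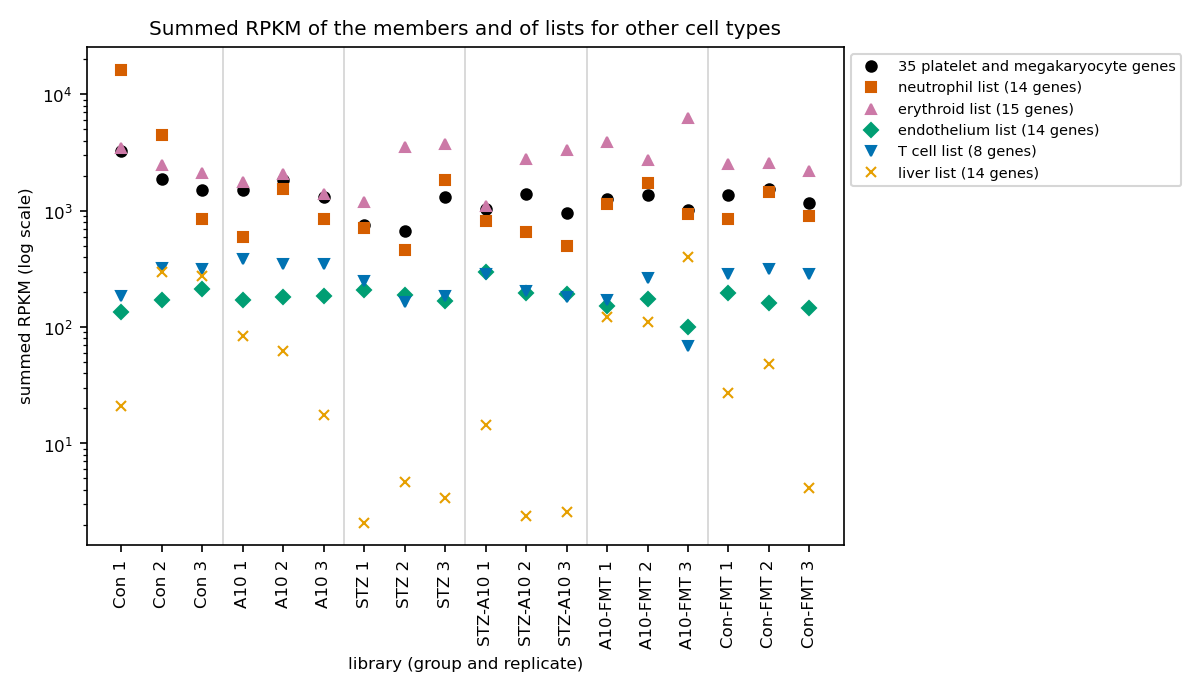
Points are summed RPKM (log axis) in each of the 18 libraries for the 35 genes and for lists of neutrophil, erythroid, endothelial, T cell and liver genes, with grey lines between the groups. The black points run from 668 to 3258 RPKM, the neutrophil sum peaks at 16314 in Con replicate 1, the erythroid sum peaks at 6290 in A10-FMT replicate 3, and the liver sum is at its lowest in STZ and in some STZ-A10 and Con-FMT libraries.

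The mean was highest in Con for 32 of the 35 genes and lowest in STZ for 29, and A10 had the second highest mean for 25. The exceptions to Con were P2ry12, highest in A10, Tbxa2r, highest in STZ-A10, and Gfi1b, highest in A10-FMT. The lowest mean fell in STZ-A10 for P2ry1 and Myl9, in A10-FMT for Tbxa2r, Ptgs1 and Fermt3, and in A10 for Gfi1b. The median over the 35 group means was 28.5 RPKM in Con, 15.5 in A10, 9.56 in STZ, 15.1 in STZ-A10, 13.2 in A10-FMT and 13.8 in Con-FMT.

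A10 against Con asks what AOS did without diabetes. None of the 35 genes passed the adjusted threshold by limma, against 0.00775% of all genes. Lower at an unadjusted p under 0.05 were 8 of the 35, against 1.68% of all genes, and 10 lay wholly below Con, against 4.81%. The median log2 fold change was -0.50 (0.05 over all genes) and -0.21 without Con replicate 1, when 1 gene was lower at an unadjusted p under 0.05, against 1.59% of all genes. The smallest adjusted p was that of Cavin2 (-0.51 ± 0.17, adjusted p = 0.689). Rgs18 followed with -0.77 ± 0.28.

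The 3 diabetic groups with a further treatment were set against the same Con libraries, so these comparisons share their controls with each other and with STZ against Con. In STZ-A10 against Con, 0 of 35 genes passed (0.093% of all genes), 25 were lower at an unadjusted p under 0.05 (5.63% of all), 17 lay wholly below Con (6.7% of all) and the median was -0.72. Slc6a4 had the largest difference, -1.40 ± 0.36 (adjusted p = 0.135). In A10-FMT against Con, 0 of 35 passed (0.0697% of all genes), 30 were lower at an unadjusted p under 0.05 and 25 lay wholly below Con, against 23.5% and 15.2% of all genes. The median was -0.82, where all genes tested had a median of -0.18, and it was -0.64 after median centring, with 18 genes lower at an unadjusted p under 0.05, against 10.9% of all genes. Cavin2 came closest to the threshold in that comparison (-0.81 ± 0.17, adjusted p = 0.0732). In Con-FMT against Con, 0 of 35 passed (0.00775%), 20 were lower at an unadjusted p under 0.05 (3.05%), 15 lay wholly below Con (5.52%) and the median was -0.59. Without Con replicate 1 the medians of these 3 comparisons were -0.41, -0.52 and -0.31, with 10, 11 and 3 genes lower at an unadjusted p under 0.05, against 5.76%, 29.9% and 3.84% of all genes.

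Among animals given AOS, STZ-A10 against A10 asks for the difference that STZ made. Here 0 of 35 passed (0.0542% of all genes), 4 were lower at an unadjusted p under 0.05 (6.42% of all) and 1, Gfi1b, was higher (0.53 ± 0.24, 3.79% of all genes higher), 7 lay wholly below A10 (14.9% of all), and the median was -0.23. Those 4 were Ppbp (-0.99 ± 0.41), P2ry12 (-0.42 ± 0.18), Myl9 (-0.66 ± 0.28) and Gp6 (-0.73 ± 0.32). The interaction is the STZ difference with AOS minus that without. It was above 0 in 35 of 35 genes, against 46.2% of all genes, with a median of 0.98. At an unadjusted p under 0.05, 21 of them were higher, against 1.21% of all genes. The contrast subtracts the STZ minus Con difference, known to be low when the genes were chosen. These counts are therefore not independent of that choice. The interaction was also above 0 in 14 of 14 neutrophil genes (median 1.64), 11 of 11 exocrine pancreas genes (1.36), 14 of 14 liver genes (1.27), 6 of 6 mast cell and basophil genes (0.71) and 15 of 15 erythroid genes (0.35). Their part in the result was not tested. None of the 35 passed the adjusted threshold (0% of all genes), and the adjusted p was 1.00 for all 35. F5 had the smallest unadjusted p (1.34 ± 0.37). The median was 0.66 without Con replicate 1, with 9 genes higher at an unadjusted p under 0.05 (1.8% of all genes), and 1.31 without STZ replicate 3, with 28 (1.5% of all).

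Against STZ, the comparisons ask whether AOS or a transplant changed the level in diabetic animals, and all 3 share the STZ libraries. The low level of the list in STZ was known when the genes were chosen, so higher values here are not independent of that choice. In STZ-A10, 0 of 35 genes passed (0.00775% of all genes), 3 were higher at an unadjusted p under 0.05 (1.28% of all), 0 lay wholly above STZ (3.29% of all), and the median was 0.48. The 3 were Tubb1 (0.80 ± 0.32), F5 (0.64 ± 0.26) and F2rl3 (0.33 ± 0.15). In A10-FMT, 0 of 35 passed (0.00775%), 5 were higher at an unadjusted p under 0.05 (1.95%), 0 lay wholly above STZ (2.33%), 1, Ptgs1, lay wholly below it (12.1%), and the median was 0.35 beside -0.15 over all genes, or 0.52 after median centring. The 5 were Ppbp (1.00 ± 0.41), Slc6a4 (0.89 ± 0.36), Gp6 (0.77 ± 0.32), Mmrn1 (0.74 ± 0.29) and Tubb1 (0.68 ± 0.32). In the same comparison all 14 liver genes lay wholly above STZ (median 2.79), 15 of 15 erythroid genes had differences above 0 (0.67), and 8 of 13 red pulp macrophage genes were lower at an unadjusted p under 0.05 (-0.49). Their part in the result was not tested. In Con-FMT, 0 of 35 passed (0.00775%), 17 were higher at an unadjusted p under 0.05 (2.66%), 2 lay wholly above STZ, Trpc6 and Rasgrp2 (6.94% of all genes), 1, Gfi1b, lay wholly below it (6.22%), and the median was 0.55.

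These differences from STZ depended on which STZ libraries entered. STZ replicates 1 and 2 were among the lowest 3 of the 18 libraries for 28 and 31 genes, and STZ replicate 3 for 2. Without STZ replicate 3 the medians were 0.77, 0.54 and 0.81 for STZ-A10, A10-FMT and Con-FMT, with 23, 19 and 26 genes higher at an unadjusted p under 0.05, against 1.15%, 3.36% and 2.84% of all genes, and 0, 3 and 0 past the adjusted threshold. Without STZ replicate 2 they were 0.28, 0.20 and 0.38, with 0 genes at an unadjusted p under 0.05 in each, against 0.961%, 1.95% and 1.15% of all genes higher.

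A10-FMT against Con-FMT asks whether the donors' AOS mattered. The content of each donor group was pooled, so the recipient libraries do not replicate the donors. An effect of AOS in the donors cannot be told apart from a difference between the pools. None of the 35 genes passed (0% of all genes), and 1, Rasgrp2, was lower at an unadjusted p under 0.05 (-0.64 ± 0.27, adjusted p = 0.204), against 20.1% of all genes. The median of -0.17 equalled that of all genes tested (-0.17) and was 0.006 after median centring. A10-FMT replicate 3 was the lowest of the 3 A10-FMT libraries for 25 of the 35 genes.

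**Figure D5:**
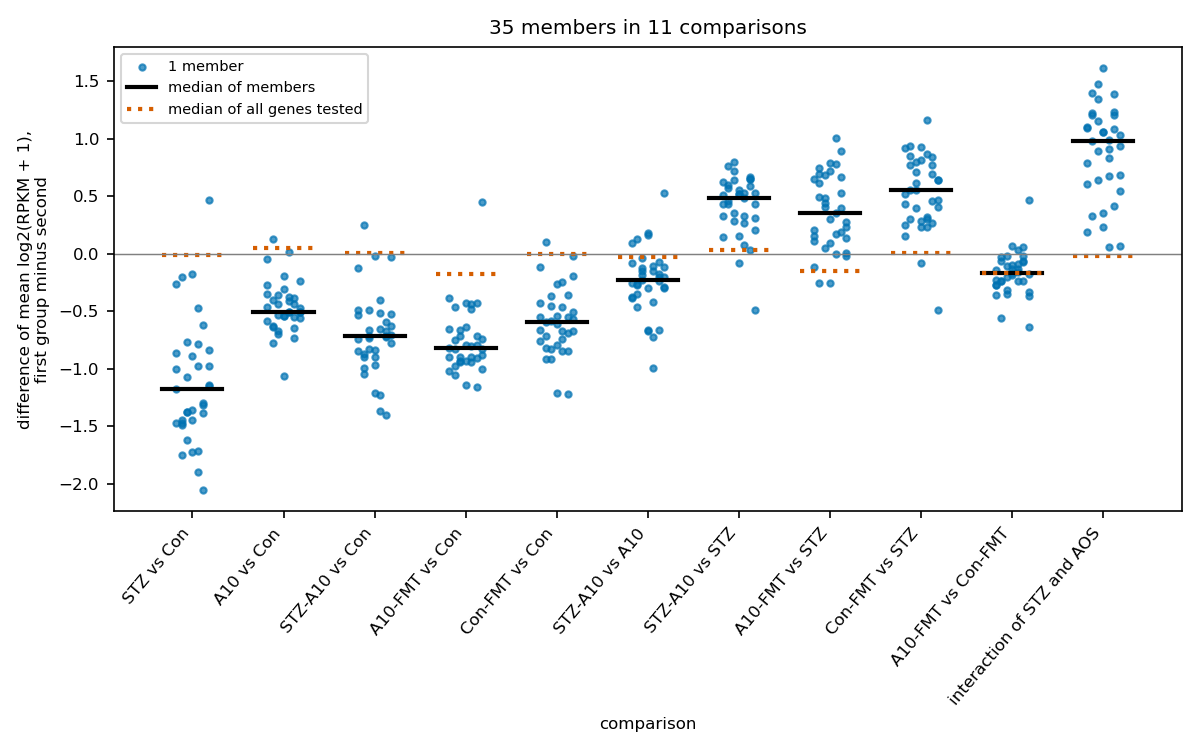
Each blue point is the log2(RPKM + 1) difference of a gene in a comparison, first group minus second, with the median of the 35 genes as a black line and that of all genes tested as a dotted line. The black line lies lowest in STZ against Con (-1.18), below 0 in every comparison with Con, above 0 in the 3 comparisons with STZ, and on the dotted line in A10-FMT against Con-FMT.

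Further genes of platelets and megakaryocytes, in 5 lists written from general knowledge, had median differences between STZ and Con nearer to 0 than the 35. Single genes of these lists ranged from -1.94 to 0.317. Of the genes named below, Rab27b, Gnaz, Tuba8, Ly6g6f, Nrgn and F2rl2 lay below the median of the 35 (-1.18). How far the lists are confined to the lineage was not tested. None of their genes passed the adjusted threshold in that comparison, and their counts at an unadjusted p stand against 6.44% of all genes lower. Of 14 regulators of the lineage, 5 had positive differences, and the median was -0.13. The ETS factor Fli1 was at 38.9 ± 6.79 RPKM in Con and 24.8 ± 6.14 in STZ (log2 fold change -0.65 ± 0.25, adjusted p = 0.32). Meis1 had a difference of -0.32 ± 0.18, adjusted p = 0.592. The erythroid and megakaryocytic factor Gata1 was at 80.4 ± 32.1 RPKM in Con and 86.99 ± 17.5 in STZ (0.17 ± 0.30, adjusted p = 0.907). Of 23 genes of granule biogenesis and release, 5 were lower at an unadjusted p under 0.05 (median -0.10), led by Rab27b, a GTPase of granule secretion (7.17 ± 3.54 RPKM in Con and 2.37 ± 1.55 in STZ, -1.29 ± 0.29, adjusted p = 0.0694), Slc35d3, needed for dense granules (-0.99 ± 0.27, adjusted p = 0.124), and Rab27a (-0.72 ± 0.21, adjusted p = 0.162).

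Of 33 tested platelet signalling genes, 13 were lower at an unadjusted p under 0.05 (median -0.32). The largest differences were those of Gnaz, a G protein α subunit of platelets (8.57 ± 3.51 RPKM in Con and 2.89 ± 2.11 in STZ, -1.37 ± 0.30, adjusted p = 0.0694), Mrvi1, a target of cyclic GMP signalling (-0.78 ± 0.19, adjusted p = 0.0834), and Ubash3b (-0.76 ± 0.16, adjusted p = 0.0642). Of 19 cytoskeletal genes, 13 were lower (median -0.50), with Tuba8 (9.07 ± 5.13 RPKM in Con and 2.25 ± 1.06 in STZ, -1.55 ± 0.33, adjusted p = 0.0635), Parvb (-0.90 ± 0.27, adjusted p = 0.168) and the focal adhesion protein Zyx (-0.76 ± 0.21, adjusted p = 0.133) ahead. Of 24 tested further surface and secreted genes, 14 were lower (median -0.41), led by Ly6g6f (20.3 ± 11.9 RPKM in Con and 5.13 ± 4.85 in STZ, -1.94 ± 0.45, adjusted p = 0.0738), Nrgn (-1.47 ± 0.39, adjusted p = 0.109) and F2rl2, protease-activated receptor 3 (-1.45 ± 0.33, adjusted p = 0.0703). Across the 5 lists and 11 comparisons, 1 gene passed the adjusted threshold, the actin cross-linker Flna in A10-FMT against Con, at 115.6 ± 6.32 RPKM in Con and 63.0 ± 16.3 in A10-FMT (-0.90 ± 0.16, adjusted p = 0.0491). In that comparison 27 of the 33 signalling genes were lower at an unadjusted p under 0.05, against 23.5% of all genes.

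Across the 18 libraries most of the 35 genes followed each other. Pearson's r of a gene with the mean standardized level of the other 34 was above 0.9 for 24 of the 35, with a median of 0.946. The highest was that of Itgb3 (0.980), and the lowest were those of Gfi1b (-0.304), Tbxa2r (0.238), Ptgs1 (0.468) and Fermt3 (0.564). These values describe libraries that share groups and are given without a test. Within the groups, that is after removing each group's mean, r was 0.975 for Itgb3 and 0.177 for Gfi1b. The median SD of the 35 genes between libraries of a group was 0.54 in Con and 0.54 in STZ on the log2 scale, and 0.20 to 0.29 in the other groups, while that of all genes tested was 0.092 to 0.25. Only in A10-FMT was it smaller for the 35 genes (0.21) than for all genes tested (0.25).

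Among the genes outside the 35, the 10 with the most similar pattern by Pearson's r with the mean standardized level of the 35 over the 18 libraries were Gnaz (0.980), Pde5a (0.979), Gas2l1 (0.979), Gmpr (0.978), Pls1 (0.972), Mfap3l (0.962), Sec14l5 (0.959), Myct1 (0.958), Mpig6b (0.957) and Kalrn (0.956). All 10 had their highest level in Con replicate 1. Their mean levels in Con and STZ were, for example, 8.57 and 2.89 RPKM for Gnaz, 9.91 and 3.39 RPKM for Pde5a, the cyclic GMP phosphodiesterase, and 9.98 and 3.36 RPKM for Mpig6b, an inhibitory receptor of megakaryocytes. Gnaz and Mpig6b are on the platelet lists above and the other 8 are on none of the lists used here.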

How the data were processed

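The table holds 18 poly(A) libraries of mouse spleen. Per the study's methods, the authors aligned reads to reference genes with SOAPaligner 2.20 and deposited RPKM values. The submitters' processing notes name Bowtie 0.12.2 and mm10, with no role given. The annotation is not given in the sources used here. Of 19326 lines, 6 with repeated names were left out.

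Groups were taken from the treatment labels. Values were tested with limma 3.58.1 (trend, R 4.3.3) on log2(RPKM + 1), on 12905 genes with an RPKM of at least 1 in at least 3 libraries, in 1 fit of all 18 libraries with a coefficient per group. P-values are two-sided and adjusted by the Benjamini-Hochberg method over these genes. In data simulated for 12905 genes, 196 of 200 genes changed by 2 on the log2 scale were recovered and 8 unchanged genes were called. The simulated noise was independent between genes and libraries, with 1 spread per gene over all groups. The planted change was also larger in size than the median of the 35 genes (-1.18). The recovery therefore does not measure the power for these genes. Every one of the 35 genes is described. Single-library values are given for the called genes and the 2 most abundant of each class. Further lists are named by their 3 largest differences in STZ against Con. Gata1 is named in addition, and Flna for its call in A10-FMT against Con. The result of 1 gene of these lists is not reported here. The genes, lists and tests were chosen with earlier results of these data known, and the lower platelet list in STZ was among those results. Positions come from GENCODE M21 (GRCm38) by symbol and may differ from the authors' annotation. Alternatives were quantile normalization, median centring, scaling without globin genes, other filters and pseudocounts, array weights, a replicate block, fits of the compared groups, limma without trend, a fold threshold of the size the study used, and leaving out single libraries.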

Additional observations from a re-analysis of the deposited data

How the results depend on the processing

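In STZ against Con 5 of the 35 genes passed. The count was 2 with quantile normalization, 3 with an RPKM of at least 1 required in every library and 9 with a pseudocount of 0.1. In the same order 0.24%, 0.0813% and 0.364% of all genes passed. With array weights the count was 34, and 28.8% of all genes passed. It was 0 after median centring (0.0387% of all genes), with globin genes left out of the scaling (0.062%) and with no filter (0.0475%). When only the compared groups were fitted it was 0 (0% of all genes), as it was with the threshold of the size the study used. Leaving out single libraries gave 0 to 24, beside 0.00775% to 1.26% of all genes. It was 8 without Con replicate 1 and A10-FMT replicate 3, and 24 without Con replicate 1 and STZ replicate 3, beside 2.44% and 1.88% of all genes. The log2 fold change of Ptgs1 ran from -0.34 without Con replicate 3 to 0.051 without Con replicate 1.

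No gene of the 35 passed in the other comparisons, but array weights gave 5 in A10, 8 in STZ-A10, 32 in A10-FMT and 8 in Con-FMT against Con, 2 in STZ-A10 against A10, 17 in A10-FMT and 28 in Con-FMT against STZ, and 8 in A10-FMT against Con-FMT. In the same order array weights called 10.3%, 15.1%, 55.3%, 6.82%, 13.9%, 16.6%, 18.3% and 47% of all genes. The weights were estimated gene by gene, a choice made after the default estimate did not converge. Leaving out single libraries gave 0 to 16 in A10-FMT against Con (16 without A10-FMT replicate 2, beside 25.5% of all genes). It gave 0 to 3 in A10-FMT against STZ (3 without STZ replicate 3, beside 0.674% of all genes). In A10-FMT against Con-FMT it gave 0 to 2 (20.3% of all genes without A10-FMT replicate 2). Without Con replicate 1 and STZ replicate 3 there were 2 in STZ-A10 against Con, 11 in A10-FMT and 4 in Con-FMT against STZ, beside 0.899%, 2.01% and 0.0465% of all genes. With globin genes left out of the scaling, 1 passed in A10-FMT against Con, beside 2% of all genes. The causes of these shifts were not tested.

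The replicate numbers share no stated origin. Deviations of same-numbered libraries correlated by -0.37 to 0.21 over 15 pairs that each held a Con library. Pairs among the other groups were left out. Against libraries of other groups, 9 of 18 correlated best with their own number, and no chance level was set beside this count. With the replicate block, 0 of the 35 passed in each of the 11 comparisons, beside 0% to 0.101% of all genes. Counting error limits the lowest genes, Trpc6 (about 38 reads) and Selp (about 49 reads), by 16.3% and 14.3%.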
